A study of Arabidopsis thaliana with 4 samples.

Results

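The probes described here carry the accession of a sequenced transcript and no Arabidopsis locus name. They were chosen by name alone: every probe that is not a control and whose systematic name starts neither with a chromosome nor with a locus tag. Of 37478 probes on the array, 2430 met that rule, against 26236 probes that name a locus and 8812 that name a chromosome interval. The 2430 probes carry 2354 different names, of which 10 are the probe's own name with no accession. None of the 2430 names matched the TAIR10.1 gene table from RefSeq. The array files hold no description and no probe sequence either, so each member is called by its accession, and no gene name, position or role is given to it.

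The samples compare ang3, a mutant of Arabidopsis thaliana, with Ler (Landsberg erecta), its control. RNA of the 2 genotypes was hybridised together on each of 4 two-colour arrays, with ang3 in Cy5 on replicates 1 and 3 and in Cy3 on replicates 2 and 4. It came from the green parts of seedlings grown in vitro at 21 °C with 16 h of light after 3 days in the cold, which took in cotyledons, young leaves and the meristem, and the labels call the tissue shoot apex. Stage 1.02 is given in the labels and stage 1.03 in the series text. The series text speaks of 4 replicates harvested per genotype and of dye swaps, without saying which arrays share an extract, so n = 4 counts arrays and p-values may rest partly on technical spread.

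As background, arrays of this period were built on gene models and also on sequences known only as transcripts. An expressed sequence tag is a single sequencing read from a cDNA clone, and the prefixes AV, BP and AU belong to such reads deposited in Japan, whereas AI, AA, T, CB and several others belong to GenBank reads. Prefix BX marks entries of sequencing projects held at EMBL, many of them full-length cDNAs. A TC name is a tentative consensus of a gene index, that is, an assembly of overlapping tags and transcripts, and an NP name in such an index marks a coding sequence taken from a GenBank entry, not a RefSeq protein. A transcript of this kind can stem from an unannotated gene, an antisense or noncoding RNA, a transposon, or an untranslated end of a known gene. The mutant itself is known as an allele of RPL5B, a gene for a cytosolic ribosomal protein of the large subunit.

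Each channel had 19224 to 21332 probes flagged as well above background, which the scanner software sets for a signal clearly over its local surroundings. RPL5B (AT5G39740) had a log2 ratio of -0.04 (adjusted p = 0.70) and so gave no check of the labels. All 5 fixed markers of green tissue were well above background on 4 of 4 arrays in both genotypes, as were the meristem genes STM and KNAT1, while the meristem genes WUS and CLV3 were not on any array. Among 4 root markers, PLT1 was not well above background on any array, but WOX5 and TIP2;3 were on all 4 arrays of both genotypes, with mean log2 signals of 7.79 and 7.41 in ang3 and 7.76 and 7.60 in Ler. STM (0.36, adjusted p = 0.0088) and KNAT1 (0.32, adjusted p = 0.012) were higher in ang3, and CAB1 (-0.44, adjusted p = 0.0088) and RBCS1A (-0.17, adjusted p = 0.038), both photosynthesis genes, were lower, while CAB3 (-0.26, adjusted p = 0.058), RBCS1B (0.10, adjusted p = 0.45) and RCA (-0.01, adjusted p = 0.88) were not called. The root gene WOX5 (0.03, adjusted p = 0.60), the tested probe of the root gene IRT1 (-0.04, adjusted p = 0.45) and the flower gene AP3 (-0.07, adjusted p = 0.32) were not called. The root gene TIP2;3 (-0.19, adjusted p = 0.034) and the flower gene PI (-0.25, adjusted p = 0.031) were lower in ang3, PI from dim mean log2 signals of 7.27 in ang3 and 7.52 in Ler. The part of such shifts in the ratios below was not tested. All levels here are log2 signals, which depend on each probe's sequence as well as on its transcript, so that a brighter probe need not mean a more abundant transcript. In RNA of a whole organ, fewer cells of a type and less RNA per cell cannot be told apart.

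Most of the accession probes gave no clear signal in these seedlings. Of 2430 probes, 1476 (60.7%) were not well above background on any array in either genotype. The corresponding share was 23.3% of the locus probes and 79.2% of the interval probes. Across the arrays, 568 to 781 of the 2430 were well above background in ang3, against 512 to 770 in Ler. Both genotypes had their fewest on replicate 4.

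A ratio was tested where one genotype's channel carried that flag on 3 or 4 of the 4 arrays. That held for 662 accession probes (27.2%), which carry 634 different names, and 1768 were left untested. The share tested was 71.8% of the locus probes and 11.8% of the interval probes. Of the 662, 469 were well above background on all 4 arrays in both genotypes. For 122 accession probes the better genotype reached just 3 arrays, the lowest number that passed, and their median log2 signal was 7.25. For 105 it reached 2 arrays and they stayed out, with a median of 7.14. Because a probe could pass through the genotype in which it was brighter, the 662 tested probes do not stand for all members.

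The names differed in how often a signal was seen. Of 407 TC probes, 211 (51.8%) were tested, and of 334 NP probes 91 (27.2%). Entries of single reads or clones had a lower share: 348 of 1661 probes in 20 prefix groups (21%) were tested, and 66.3% of them were not above background on any array. Among these the share tested was 19.2% for the 723 AV probes, 15.6% for the 416 BP probes and 11.6% for the 95 AU probes, but 34.9% for the 152 BX probes. Of 6 CK probes 5 were tested, and these 5 had a median log2 signal of 11.1.

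A minority of the tested accession probes was called, and those over 2-fold were higher in ang3, as were most such features on the array. With an adjusted p under 0.05, 56 of 662 were higher in ang3 and 34 were lower, or 13.6% in all. Over all 20155 genes and other probes tested, 26.2% were called, 15% higher and 11.2% lower. The share was 27.3% of the locus genes but 14.1% of the 1043 interval probes (6.9% higher and 7.19% lower), close to that of the accession probes. With the authors' processed signals the shares of accession probes and of all features lay close together, at 21.8% and 22.5%. Over 2-fold, 6 of the 662 accession probes were higher and none was lower. Over all features 101 (0.501%) were higher and 6 (0.0298%) lower, so that direction was not particular to the accession probes. The median ratio of the 662 was -0.0004, against 0.011 over all features. The same sign stood on 4 arrays for 88 of the 90 called probes, and for 4952 of the 5283 called features.

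The calls leaned on single arrays and on the normalization. They numbered 51 without replicate 1, 45 without replicate 2, 15 without replicate 3 and 53 without replicate 4. Over all features the share called fell likewise, to 14.4%, 10.3%, 2.66% and 12.8% in the same settings. After median centring of each array, 94 were higher and 5 lower (6947 and 425 over all features), and with the authors' processed signals 60 were higher and 84 lower, so that the share of calls that were higher was 62.2%, 94.9% with median centring and 41.7% with processed signals. Median centring put the median of all features at 0.143, and the members' median then differed from it by -0.118.

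Signal strength moved with the share called. Of the 269 accession probes with a mean log2 signal up to 7.5, 15 were called (5.58%), and of the 163 between 7.5 and 8, 18 (11%). Between 8 and 9 it was 18 of 106 (17%), between 9 and 10 it was 19 of 62 (30.6%), and between 10 and 12 it was 12 of 50 (24%). Above 12, 8 of 12 were called, 4 in each direction. For locus genes the shares were 15.3%, 18.6%, 25.2%, 25.5%, 27.3% and 43.2%, from the lowest of these bands to the highest. Accession probes had the lower share in each band up to 9. They had the higher share between 9 and 10 and above 12, and the lower between 10 and 12, from few probes. The accession probes had a median log2 signal of 7.63 and the tested locus genes 9.95, and 40.6% of the accession probes but 7.7% of the locus genes lay in the lowest band. The part of signal strength in the lower share of calls was not tested.

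TC273971 had the largest increase among the accession probes. Its log2 ratio of ang3 over Ler was 2.17, 2.78, 2.45 and 2.66 on replicates 1 to 4, a mean of 2.51 (SE 0.058, SD 0.27, n = 4; adjusted p = 0.00080). The signal on the log2 scale was 11.5, 11.4, 11.9 and 11.5 in ang3, against 9.36, 8.64, 9.42 and 8.82 in Ler. Every ang3 value lay above every Ler value, and the mean ratio stands for a 5.71-fold higher level in ang3. Under the 12 alternative settings its ratio ranged from 2.44 to 2.82, with an adjusted p of at most 0.014.

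TC256991 was next, with ratios of 1.30, 2.26, 1.80 and 1.98 and a mean of 1.84 (SE 0.096, SD 0.40; adjusted p = 0.0046). Its signal was 9.82, 10.0, 9.96 and 10.1 in ang3, against 8.52, 7.76, 8.17 and 8.08 in Ler. The genotypes did not overlap here either, and the level was 3.57-fold higher in ang3. NP454445 had ratios of 1.62, 2.05, 2.10 and 0.95, a mean of 1.68 (SE 0.19, SD 0.53; adjusted p = 0.0097). Signals of NP454445 were 10.05, 10.55, 10.51 and 9.67 in ang3, against 8.43, 8.50, 8.40 and 8.72 in Ler, so that ang3 was nearest to Ler on replicate 4. Without replicate 3 the adjusted p of NP454445 was 0.053.

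TC259648 was well above background in ang3 on 4 of 4 arrays and in Ler on none. Its signal was 8.60, 8.55, 8.28 and 8.70 in ang3, against 7.74, 6.55, 7.30 and 6.99 in Ler, where it gives only an upper limit. The mean ang3 level was therefore higher by at least 2.53-fold (adjusted p = 0.0026 for the fitted ratio). A bound of this kind sets the mean of the genotype with signal against, on each array, the higher of the other genotype's own value and the lowest signal flagged as above background in its channel. It bounds the mean and does not take in the spread of the arrays. An adjusted p beside a bound, here and below, belongs to the fitted ratio and does not test the bound. The lowest flagged Ler signals were 5.72, 6.76, 6.97 and 6.16 on replicates 1 to 4. For TC259648 they replaced the Ler value on replicate 2 alone, so its bound stays close to the observed ratio. The fitted ratios were 0.87, 1.99, 0.98 and 1.72, higher on both arrays with ang3 in Cy3. Without the offset of 50 that is added before the logarithm, the fitted ratio was 2.06, and with the processed signals it was 4.01.

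TC267534 and TC255286 completed the accession probes over 2-fold. TC267534 stood at 0.91, 0.88, 1.31 and 1.32 (mean 1.104, SE 0.099, SD 0.24; adjusted p = 0.0078), with signals between 9.65 and 10.2 in ang3 and between 8.33 and 9.35 in Ler. TC255286 stood at 0.51, 1.11, 1.06 and 1.41 (mean 1.02, SE 0.11, SD 0.38; adjusted p = 0.0085), with 8.69 to 9.13 in ang3 and 7.66 to 8.18 in Ler. In both, all 4 ang3 values were above all 4 Ler values. The mean of TC267534 without replicate 4 was 0.995, and that of TC255286 without replicate 3 was 0.88, each just under 2-fold and still called.

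The other 6 of the 12 highest had smaller ratios. NP301363 rose by 0.71 (SE 0.054, SD 0.34; adjusted p = 0.0067) and was well above background on 4 arrays in ang3 and on 1 in Ler. AA041063 had a fitted ratio of 0.67 and TC257202 one of 0.60, and in Ler neither passed the background flag on any array. A CK121013 probe rose by 0.67 (SE 0.069, SD 0.22; adjusted p = 0.0085), with signals between 12.9 and 13.2 in ang3 and between 12.3 and 12.5 in Ler. The probe A_84_P22079, named by no accession, rose by 0.64 and TC276461 by 0.63. Of the 12 highest, 8 had their lowest ratio on replicate 1, and 9 had both ratios with ang3 in Cy3 above both with ang3 in Cy5. A difference between the dye orientations cannot be told apart from one of replicates 2 and 4 against 1 and 3. The calls were lost for A_84_P22079 (adjusted p = 0.060) and TC257202 (adjusted p = 0.057) without replicate 3, and for TC276461 without replicate 2 (adjusted p = 0.055).

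A further 44 accession probes rose, by 0.13 to 0.56 with a median of 0.27. They included NP043254 and TC263210, whose 4 arrays were close together: 0.40, 0.37, 0.34 and 0.34 for NP043254, and 0.38, 0.33, 0.37 and 0.33 for TC263210. Both are named after their values were seen, like the members below that stand outside the rule for named members. BP586302, at 0.04, 0.38, 0.41 and 0.81, shows the other extreme.

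Decreases in ang3 were all under 2-fold. TC256987 had the lowest ratio, with -0.41, -0.68, -0.35 and -0.46 on replicates 1 to 4 and a mean of -0.47 (SE 0.049, SD 0.14, n = 4; adjusted p = 0.0085). The level was 1.39-fold higher in Ler. It was called under all 12 alternatives, with ratios between -0.64 and -0.33. TC278720 followed at -0.24, -0.65, -0.36 and -0.48 (mean -0.43, SE 0.046; adjusted p = 0.0089), and TC268455 at -0.20, -0.41, -0.66 and -0.37 (mean -0.41, SE 0.081; adjusted p = 0.025). BP640902 fell by 0.40 and AY065451 by 0.39, each lower on 4 of 4 arrays. These probes were well above background in both genotypes on every array.

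The remaining 7 of the 12 lowest fell by 0.25 to 0.35. TC267084 had a fitted ratio of -0.35 and was not above background in ang3 on any array. NP454460 and TC259666 fell by 0.33 each, and NP224767 by 0.30. NP224767, one of the brightest members, had ratios of -0.33, -0.32, -0.32 and -0.23, from signals of 13.8, 13.8, 13.8 and 14.0 in ang3 against 14.1, 14.2, 14.1 and 14.3 in Ler. NP237971 was nearly as even, with -0.26, -0.26, -0.37 and -0.25. A TC278416 probe fell by 0.30 and TC268171 by 0.25. A further 22 accession probes fell, by 0.14 to 0.25.

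Of the 34 decreases, 5 kept their call with median centring, against 53 of the 56 increases. In that setting TC268455, NP454460, TC259666, NP224767, TC278416, NP237971 and TC268171 lost theirs, with ratios between -0.23 and -0.10. Without replicate 3, 1 decrease and 14 increases kept the call. TC256987 is the decrease that kept it there. TC268455 and TC278416 also lost the call without replicate 2 and without replicate 4, TC268171 without replicate 2 and NP454460 without replicate 1. Over all alternatives the adjusted p of these 12 probes reached at most 0.29, for NP237971 with median centring.

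Some probes were flagged as well above background in 1 genotype only. Of the 662 tested probes, 7 lacked the flag in Ler on all arrays and 1 lacked it in ang3. Over all 20155 features the numbers were 97 and 12. Of these 8 accession probes, 6 were called. NP033929 (ratio 0.14, adjusted p = 0.073) was not, nor was AV543974 (ratio 0.04, adjusted p = 0.43), with mean signals of 7.15 in ang3 and 7.12 in Ler. A difference in the flag alone thus need not mean a difference in level. For AA041063 the bound was 1.59-fold higher in ang3 (adjusted p = 0.0051), with signals of 7.71, 7.75, 7.60 and 7.73 in ang3 against 7.39, 6.77, 7.16 and 6.79 in Ler. These Ler values lay above the lowest flagged signal on each array, so the bound equals the fitted ratio. For TC257202 the bound was 1.51-fold higher in ang3 (adjusted p = 0.010), at 7.63, 7.72, 7.57 and 7.51 in ang3 against 7.33, 6.74, 7.09 and 6.89 in Ler. In both, all ang3 signals lay above all Ler signals, in a range close to the background. Both probes entered the test through ang3 alone and were named for their large bounds. This order of the genotypes therefore follows in part from the choice and is no separate support for a difference.

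TC267084 showed the opposite. Its signal was 7.12, 6.92, 7.01 and 6.88 in ang3, where it was not above background, against 7.21, 7.503, 7.23 and 7.39 in Ler, and it was at least 1.27-fold lower in ang3 (adjusted p = 0.0097). With the processed signals its fitted ratio was -2.21. Without replicate 3 the call was lost (adjusted p = 0.059). AV803226, above background on 3 arrays in ang3 and on none in Ler, had a bound of 1.21-fold higher in ang3 (adjusted p = 0.028). Its ratio on replicate 1 was 0.02. The call of AV803226 was lost without replicates 2, 3 or 4 and without a dye term (adjusted p up to 0.13). Among all tested members, 87 were above background on more arrays in ang3 than in Ler and 37 on fewer, with 538 equal. Over all features these numbers were 826, 378 and 18951.

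The 5 members with the brightest signal were not alike in their response. TC271204 had signals of 16.0, 15.8, 16.0 and 15.6 in ang3, against 15.9, 16.2, 15.8 and 16.1 in Ler. Its ratios were 0.15 and 0.17 with ang3 in Cy5 but -0.43 and -0.50 with ang3 in Cy3. The fit takes up such a split as a dye effect and called the mean of -0.15 (SE 0.035, SD 0.36; adjusted p = 0.034), although the genotypes overlapped and changed order with the dye. This call was lost under 9 of 12 alternatives, among them the fit without a dye term, with an adjusted p of up to 0.79. TC252586 had a ratio of -0.21 (SE 0.074, SD 0.19; adjusted p = 0.095), which was -0.31 and called without replicate 2 (adjusted p = 0.041), -0.11 without replicate 4 and -0.04 with median centring. A_84_P736024 had a ratio of 0.06 (SE 0.082, SD 0.27; adjusted p = 0.64). The second CK121013 probe and NP224767 are the other two.

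Several accessions are measured by more than 1 probe, which gives separate readings under the same transcript name. There were 62 such accessions with 138 probes. In 28 of them no probe was tested, in 13 just 1 was, and 21 had at least 2 tested probes, 49 in all. Within these 21 the spread between the lowest and the highest probe ratio had a median of 0.091. At least 1 probe was called in 8 of them, more than 1 in 3, and no accession had probes called in opposite directions. In 14 of the 21 all tested probes had the same sign.

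CK121013 rose on both of its probes. One stood at 0.72, 0.85, 0.35 and 0.74 (mean 0.67), and the other at 0.64, 0.54, 0.52 and 0.53 (mean 0.56, SE 0.038, SD 0.055; adjusted p = 0.0066). On the second probe the signals were 13.4, 13.3, 13.3 and 13.2 in ang3 against 12.8, 12.7, 12.8 and 12.7 in Ler. Both CK121013 probes kept the call under all 12 alternatives.

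TC256991 was called higher on both of its probes, at different sizes. The second probe stood at 0.20, 0.76, 0.47 and 0.59 (mean 0.51; adjusted p = 0.010), against the mean of 1.84 on the first. It was well above background on 4 arrays in ang3 and on 2 in Ler. In the fit with normexp and no offset, the second probe's ratio was 0.75 and the first probe's 2.06. With the processed signals, in which no offset is added either, the second probe's mean was 1.98 and the first probe's 2.51. The processed signals also differ in background subtraction and dye normalization. The cause of the different sizes was not tested. Without replicate 3 the second probe's adjusted p was 0.050, just past the threshold.

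TC262278 also rose on both probes, by 0.44 and 0.24. For TC278416 the 3 probes had ratios of -0.30, -0.29 and -0.23, and just the first passed (adjusted p of 0.031, 0.068 and 0.095). TC266989 had a probe at 0.42 (adjusted p = 0.024) and another at 0.15 (adjusted p = 0.066). The second TC266989 probe was at 0.35 and 0.47 with ang3 in Cy5 but at -0.19 and -0.03 in Cy3. BX821454 had 4 probes, of which one fell by 0.22 (adjusted p = 0.024) and the others had ratios of -0.07, -0.01 and 0.02. TC267534, over 2-fold higher in ang3 on the probe described above, has a second probe that was not above background in either genotype on any array.

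CK120222 showed no difference between the genotypes that passed, yet its 3 probes moved together from array to array. They stood at -0.27, -0.32 and -0.62 on replicate 1 and at -0.13, -0.19 and -0.50 on replicate 2. On replicate 3 they stood at 0.25, 0.23 and 0.19, and on replicate 4 at 0.38, 0.45 and 0.14. Replicates 1 and 2 were low and 3 and 4 high on every probe, an order that does not follow the dyes. The means were 0.06, 0.04 and -0.19, with adjusted p of 0.75, 0.84 and 0.42.

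Members that were not called mostly had small ratios: of 572, 464 lay between -0.1 and 0.1. A ratio above 0.5 without a call was found for 2. TC269258 stood at -0.31, 1.59, 0.72 and 0.39 (mean 0.60, SE 0.25; adjusted p = 0.14) and TC259238 at -0.18, 1.48, 0.65 and 0.17 (mean 0.53, SE 0.25; adjusted p = 0.17). Both were highest on replicate 2 and below 0 on replicate 1.

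Calls were spread unevenly over the kinds of names. Of the 211 tested TC probes, 28 rose and 16 fell (20.9%), and of the 91 NP probes 13 rose and 6 fell (20.9%). Of the 348 tested single-read or clone entries, 14 rose and 11 fell (7.18%). The remaining 12 tested probes, with AK, AY or their own probe names, gave 1 call in each direction. NP names with adjacent numbers were both tested in 2 cases, and both probes rose in each: NP301362 by 0.49 beside NP301363 by 0.71, and NP041544 by 0.23 beside NP041545 by 0.47. Of the 6 increases over 2-fold 5 were TC probes and 1 was an NP probe. The median log2 signal was 8.31 for TC, 7.82 for NP and 7.45 for single-read or clone entries.

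The arrays differed in how far the members spread. Over the 662 ratios the standard deviation came to 0.174 on replicate 1, 0.294 on replicate 2, 0.224 on replicate 3 and 0.255 on replicate 4. Between arrays the ratios correlated across members with r of 0.629 at the lowest, for replicates 1 and 4, and 0.791 at the highest, for replicates 2 and 3. These are descriptions over 662 probes that share arrays and extracts. Without the 6 probes over 2-fold, r fell to between 0.36 and 0.652, and each pair that included replicate 1 was below each pair that did not.

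The log ratios and p-values that the authors deposited in their array files come from the processed signals of 1 array at a time. With the authors' criterion of a p under 0.05 and an absolute log2 ratio above 1, the deposited values passed for 21 to 29 accession probes higher in ang3 and 3 to 15 lower, depending on the array. That was 0.988% to 1.81% of the 2430 probes, against 1.58% to 2.93% of all probes. On all 4 arrays, 11 accession probes passed as higher in ang3 in the deposited values and 1, TC267084, as lower, against 163 and 29 of all 37478 probes. The 11 were TC273971, TC259648, TC255286, NP454445, both TC256991 probes, NP301363, AA041063, TC257202, TC278651 and BP670915. Each of these was also called in the fit, which rests on the same 4 arrays and so is no independent check. NP236773 passed on 3 arrays, with deposited log2 ratios of 2.59, 3.23, 2.07 and 1.55. Its probe was well above background on 2 arrays in ang3 and on none in Ler, so it was not tested here, and a second NP236773 probe was above background on no array.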

How the data were processed

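The authors quantified spots with Agilent Feature Extraction 10.1.1.1, per the file headers. Spot and background intensity values used here are deposited median pixel intensities per channel, without normalization. The deposited processed signals were background-subtracted and dye-normalized by the authors within each array, and the deposited log10 ratio and its p-value come from these, 1 array at a time. Flags for signal above background are the scanner software's, as deposited. The log2 ratios in the series table of the authors match the processed signals (r = 1 and slope 1 against them), already ang3 over Ler and not centred, with column medians from -0.097 to 0.0259. The genome build is not given in the sources used here.

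In R 4.3.3 with limma 3.58.1, median signals were corrected with normexp (offset 50) and normalized by loess within arrays. Control spots had weight 0, and the 1 to 9 spots per array flagged as non-uniform were left out. No spot was saturated. Locus genes entered by their brightest probe, all other probes singly. lmFit and eBayes used a dye intercept, with 2 residual and 3.03 prior degrees of freedom. Benjamini-Hochberg adjustment ran over 20155 features. SE is that of the fit, after the dye effect, and SD is the spread of the 4 ratios. The fit was tested on simulated data. Channel levels were taken after loess and Aquantile.

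Members and lists were chosen with earlier results of these data known. Named members are the 12 highest and 12 lowest called with 1 sign on 4 arrays, the 5 brightest and the 3 with the smallest p. The 5 largest bounds among members flagged as above background in 1 genotype only are named too. Sorting by description, as planned, was not possible without a description in the files. A comparison of members with locus probes of the same gene was not possible either, since none of the 2430 names matched.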

Additional observations from a re-analysis of the deposited data

Results flagged for a closer look

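Among the 29 named probes, 2 had 1 array apart from the other 3 by Dixon's test at the 95% level, which chance passes in about 1 of 20 groups. NP237971 stood at -0.37 on replicate 3 and between -0.26 and -0.25 on the others, with a gap of 0.912 of its whole range. NP224767 stood at -0.23 on replicate 4 and between -0.33 and -0.32 on the others, with a gap of 0.891 of its range. Over all 662 tested members 30 (4.53%) passed in the same way.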

How the results depend on the processing

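Of the 12 alternatives, normexp without offset, no dye term, no filter, the stricter filter and a fit with every probe as its own feature left the counts of 90 called, 56 higher, 34 lower and 6 over 2-fold within 1.5 times. With the processed signals, and equally with the series values of the authors, 144 members were called, 84 of them lower, and 19 were over 2-fold. With median centring 94 were higher and 5 lower. Leaving out 1 replicate gave 15 (without replicate 3) to 53 calls, 14 to 36 of them higher and 1 to 17 lower, with 4 to 6 over 2-fold. These leave-one-out fits each have 1 residual degree of freedom fewer. The cause of these and of the other shifts was not tested. Of the 90 called probes, 86 were called the same way without offset, 76 with processed signals, 58 with median centring, 64 without a dye term and 15 without replicate 3. For A_84_P736024, not called in any fit, the ratio was -0.031 without replicate 1, -0.025 without replicate 2 and 0.14 without replicate 3, and no other named probe changed sign. Without replicate 3, 16 of the 29 named probes lost their call, and with median centring 8. For dim probes, below a log2 signal of about 8, the size of a ratio depended on the processing. NP301363 was at 0.71, at 1.07 without offset and at 2.55 with processed signals, which also differ in background subtraction and dye normalization. Each array holds both genotypes, so the fit of ratios within arrays is already paired by array.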
